A study of Mus musculus with 12 samples.

Results

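The genes described here are 42 germline and meiosis genes, chosen by name for their known roles in germ cells, and all 42 were found once among the 50600 gene IDs of the count files. They were followed in 12 RNA-seq libraries, 1 per mouse, from 4 groups of 3 mice of a mixed C57Bl/6xSV/129 background. Ctrl is thymus of DNMT1 fl/fl mice, in which the maintenance DNA methyltransferase gene Dnmt1 is flanked by loxP sites but intact. KO is thymus of DNMT1 fl/fl CD4-CRE mice, in which Cre driven by Cd4 deletes Dnmt1 in T cells from the double-positive stage of thymocyte development. ALK is T cell lymphoma tissue of NPM-ALK+ mice, which carry the human fusion kinase NPM-ALK under the Cd4 enhancer and promoter. ALKKO is thymus of NPM-ALK+ DNMT1 fl/fl CD4-CRE mice, which carry the transgene and the deletion together. The mice were 20 to 25 wk old in Ctrl, 20 or 21 wk in KO, 22 to 31 wk in ALK and 19 to 25 wk in ALKKO, and all were male except the mouse of KO replicate 2. Transgene and deletion both differ between ALKKO and Ctrl, and tissue and transformation differ between ALK and Ctrl as well, so their parts cannot be told apart.

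Germline genes of this kind are known to be kept silent in somatic cells by DNA methylation of CpG-rich promoters, together with repressor complexes such as the E2F6 and MGA variant of Polycomb. In the germ line they are switched on as methylation is erased, and their products build the piRNA pathway, which silences transposons, and the machinery of meiosis. The synaptonemal complex holds paired chromosomes together, meiotic cohesins form the chromosome axis, and recombination enzymes make and repair the programmed DNA breaks. The comparisons of KO and of ALKKO with Ctrl ask which of these genes respond to loss of Dnmt1 in thymus, and which stay silent.

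Promoter sequence is shown for 6 of the genes, so that the CpG content which methylation acts on can be read beside the RNA values. Dazl, Syce1, Taf7l and Gtsf1 were chosen after their values were seen, as genes with more reads in every ALKKO library than in Ctrl. Dazl and Syce1 also had more in every KO library, whereas Taf7l in KO and Gtsf1 in KO replicate 3 lay within the range of Ctrl. Sycp1 and Asz1 are the genes silent in every library with the highest ratio of observed to expected CpG among those whose window lay outside the annotated gene. The bases run 5′ to 3′ on the strand of the gene, end just before the annotated gene, and are taken from RefSeq (GRCm38.p6), with every CpG dinucleotide in capitals. All 6 genes lie on the minus strand. The stretches lie at chr17:50293637-50293870 for Dazl, chr7:140787855-140788104 for Syce1, chrX:134476491-134476740 for Taf7l, chr15:103430471-103430677 for Gtsf1, chr3:102936101-102936350 for Sycp1 and chr6:18109062-18109311 for Asz1.
Dazl: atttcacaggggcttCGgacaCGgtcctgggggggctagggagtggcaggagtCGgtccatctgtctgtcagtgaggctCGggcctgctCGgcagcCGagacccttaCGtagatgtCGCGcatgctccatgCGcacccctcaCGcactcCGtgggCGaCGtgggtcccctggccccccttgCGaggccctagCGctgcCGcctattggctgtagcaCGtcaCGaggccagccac
Syce1: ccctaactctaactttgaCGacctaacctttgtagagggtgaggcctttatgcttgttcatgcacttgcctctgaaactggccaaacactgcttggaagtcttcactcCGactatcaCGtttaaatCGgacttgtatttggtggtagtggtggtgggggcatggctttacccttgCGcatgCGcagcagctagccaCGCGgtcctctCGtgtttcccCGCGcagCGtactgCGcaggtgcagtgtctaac
Taf7l: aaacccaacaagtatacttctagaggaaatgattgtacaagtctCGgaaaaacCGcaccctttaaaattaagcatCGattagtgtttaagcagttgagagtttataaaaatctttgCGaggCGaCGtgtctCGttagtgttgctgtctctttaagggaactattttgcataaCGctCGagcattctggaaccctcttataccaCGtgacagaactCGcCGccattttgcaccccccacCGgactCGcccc
Gtsf1: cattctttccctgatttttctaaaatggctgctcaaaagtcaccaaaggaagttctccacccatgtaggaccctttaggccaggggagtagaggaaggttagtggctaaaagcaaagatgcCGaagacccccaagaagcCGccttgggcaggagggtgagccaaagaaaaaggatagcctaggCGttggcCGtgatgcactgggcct
Sycp1: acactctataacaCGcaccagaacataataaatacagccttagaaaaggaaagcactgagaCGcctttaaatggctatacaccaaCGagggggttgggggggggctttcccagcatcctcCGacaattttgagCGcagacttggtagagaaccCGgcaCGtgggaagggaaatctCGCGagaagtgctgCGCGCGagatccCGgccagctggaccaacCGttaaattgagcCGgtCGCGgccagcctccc
Asz1: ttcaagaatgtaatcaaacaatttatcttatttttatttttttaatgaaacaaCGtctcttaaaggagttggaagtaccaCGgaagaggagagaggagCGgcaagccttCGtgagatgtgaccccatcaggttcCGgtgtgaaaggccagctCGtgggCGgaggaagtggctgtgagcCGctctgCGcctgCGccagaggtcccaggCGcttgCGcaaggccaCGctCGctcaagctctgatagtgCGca
The shown stretches hold 19 CpG in 234 bases for Dazl, 13 in 250 for Syce1, 14 in 250 for Taf7l, 4 in 207 for Gtsf1, 17 in 250 for Sycp1 and 15 in 250 for Asz1. They were cut from RefSeq windows of 300 bases that run on into the gene. The full windows hold 28, 14, 17, 13, 21 and 17 CpG in the same order, so most CpG of the Gtsf1 window are not shown. Since Sycp1 and Asz1 were picked for their CpG content, they are shown as examples only.

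The libraries held 12473857 to 18864327 reads on genes (median 15262212), and levels are given as CPM, the read count of a gene scaled by the TMM-adjusted size of its library. On this scale a floor of 3 counts was 0.158 to 0.261 CPM, depending on the library. Dnmt1 itself had 444, 487 and 399.6 CPM in Ctrl, 240.2, 206 and 243 in KO, 205, 221 and 244 in ALKKO, and 787, 622 and 378 in ALK. Every library with the deletion lay below every library without it. The summed level of 9 thymocyte markers ranged from 8364 to 10034 CPM (Ctrl), from 7021 to 8303 CPM (ALKKO) and from 2409 to 2983 CPM (ALK). In ALK against Ctrl edgeR called 5 of the 9 lower (Cd3g, Cd4, Cd8a, Cd8b1 and Rag2), and Cd3e, Lck and Themis were not called. Ptcra went the other way and did not pass (log2 fold change 2.07 ± 0.75 SE, edgeR adjusted p = 0.0595). Rag1, also on the thymocyte list, was listed at 0 reads in every library although its partner Rag2 had 334 to 422 CPM in Ctrl, and the myeloid marker Itgam was listed at 0 as well, so a gene at 0 everywhere in these files need not lack RNA. KO replicate 2 stood apart, with thymocyte markers at 3605 CPM against 8763 and 8781 CPM in the other KO libraries. In that library 5 B cell markers summed to 1831 CPM (2.26 to 81.5 CPM in all others) and 12 thymic epithelial markers to 220 CPM (1836 and 2126 CPM in the other KO libraries). Markers of Sertoli and Leydig cells, which would mark testis tissue, summed to 5.57 to 17.2 CPM, with no KO or ALKKO library above the Ctrl maximum. RNA was taken from whole tissue, so fewer cells of a type and less RNA per cell cannot be told apart.

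Most of the 42 genes were at low levels in thymus and tumor. In 9 of them no library exceeded 3 counts, 11 had a mean of at least 1 CPM in Ctrl, and the other 22 were low or seen in some libraries. Of the 17 piRNA pathway and germ granule genes, 1 (Tdrd5) reached 1 CPM in Ctrl and 3 were silent. All 4 recombination genes reached 1 CPM, as did 3 of 6 genes of the synaptonemal complex and chromosome axis, 1 of 3 meiotic cohesins, 1 of 7 germ cell regulators and 1 of 5 genes of the testis surface, intercellular bridge and backup copies.

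**Figure D1:**
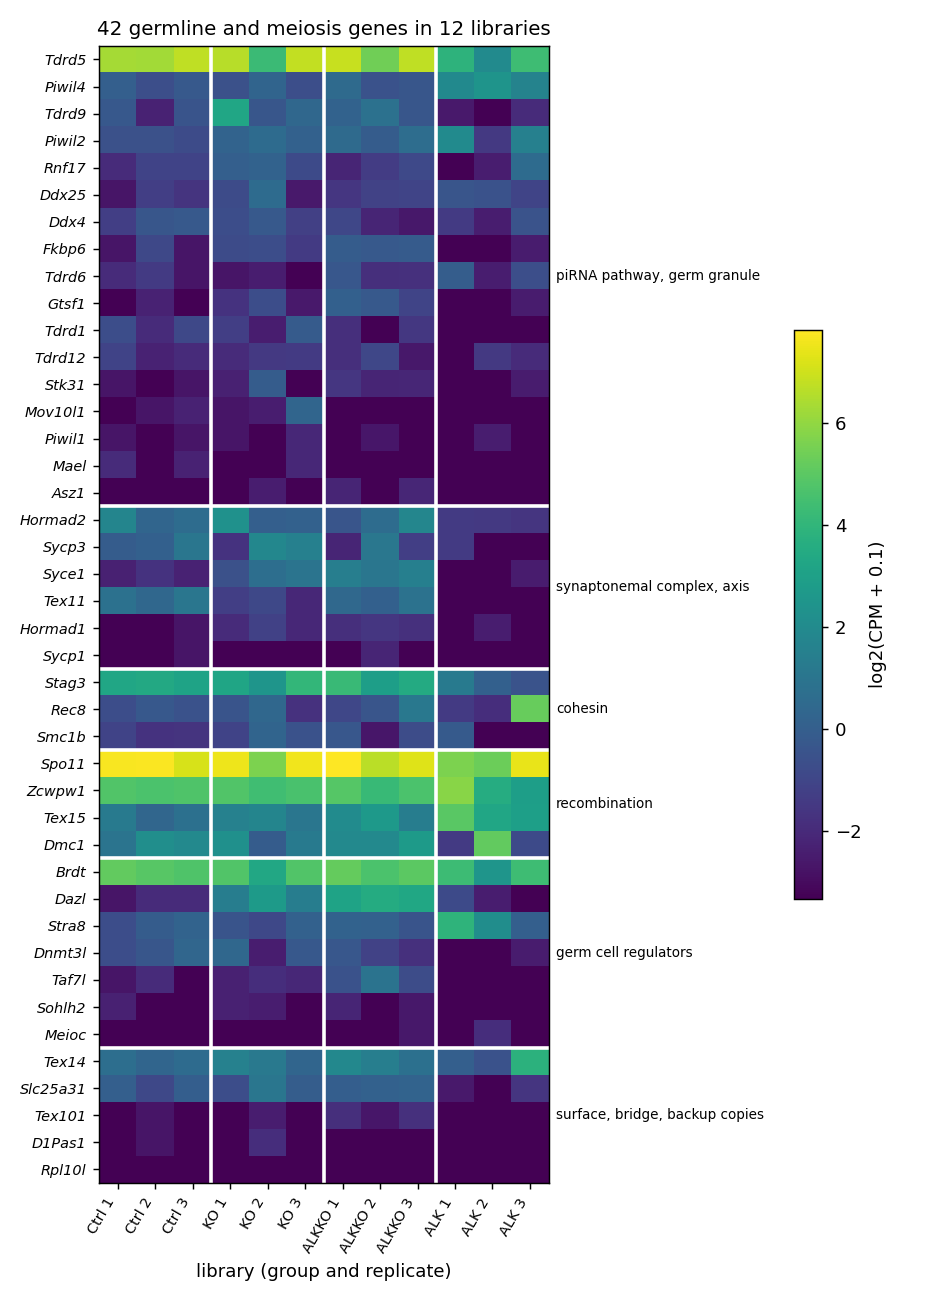
Heat map of log2(CPM + 0.1) for the 42 genes (y axis, grouped by role) in the 12 libraries (x axis, grouped as Ctrl, KO, ALKKO and ALK). Spo11, Tdrd5, Brdt and Zcwpw1 are the brightest lines in thymus, Dazl and Syce1 are brighter in KO and ALKKO than in Ctrl, and 9 genes have at most 3 counts in any library.

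Compared per kilobase of exon, the genes present in Ctrl covered a wide range of levels. Spo11, the enzyme that makes meiotic double-strand breaks, stood first at 48.6 ± 10.95 CPM per kb (mean ± SD, n = 3 for all levels per kb here). It was followed by the Tudor protein gene Tdrd5 at 12.7 ± 2.34 CPM per kb, the testis bromodomain gene Brdt at 6.08 ± 0.832 and Zcwpw1, a reader of the histone marks set by PRDM9, at 4.66 ± 0.181. The levels per kb of these 4 genes did not overlap between neighbours in that order, although Brdt and Zcwpw1 lay closest. Stag3 (1.67 ± 0.156 CPM per kb), Dmc1 (1.37 ± 0.557), Sycp3 (1.002 ± 0.499) and Hormad2 (0.707 ± 0.412) came next, each within its neighbour's spread. Tex11 (0.452 ± 0.106), Tex14 (0.270 ± 0.0414) and Tex15 (0.177 ± 0.0600) were lowest. Some of these genes share bases with another annotated gene, which makes their reads uncertain. These are Tdrd5, Tex14 and Dmc1 on the same strand and Brdt, Zcwpw1, Sycp3 and Tex11 on the other strand.

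In KO against Ctrl, edgeR's quasi-likelihood test called 0 of the 24 genes that passed the low-count filter, where a call required both an adjusted p below 0.05 and a log2 fold change beyond 1 in size. Over all 16052 genes tested 0.0187% were called. At an unadjusted p under 0.05 there were 4 of the 24 (Dazl, Syce1, Tex11 and Tdrd9), against 5.52% of all genes, and DESeq2 called 3 (Dazl, Syce1 and Tex11). In ALKKO against Ctrl, edgeR called 1 of 24, Dazl, which was higher, beside 0.181% of all genes called and 0.174% called higher. At an unadjusted p under 0.05 there were again 4 of 24 (Dazl, Syce1, Fkbp6 and Tex15), against 3.18% of all genes. With KO and ALKKO as 1 deleted set against Ctrl, edgeR called 0 of 24 (0.0561% of all genes, 0.0498% higher), 4 had an unadjusted p under 0.05 (4.34% of all genes), and DESeq2 called 2 (Dazl and Syce1). The median log2 fold change of the 24 genes was 0.19 in KO, 0.31 in ALKKO and 0.18 in both together, beside medians of 0.04, 0.01 and 0.04 over all genes. KO and ALKKO were compared with the same Ctrl libraries.

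Counted without a filter, 4 of the 41 genes with any read lay higher in every KO and ALKKO library than in every Ctrl library (Dazl, Syce1, Hormad1 and Piwil2), and over all 28141 genes with a read this share was 1.91%. None of the 41 lay lower in every deleted library, beside 1.73% of all genes. Every ALKKO library lay above every Ctrl library in 11 of 41 (7.73% of all genes), and every KO library did in 6 of 41 (4.57% of all genes). The first count was 7 without Ctrl replicate 2 and 9 without KO replicate 3, so it depended on single libraries. Without KO replicate 2 it was again 4.

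Among the 7 germ cell regulators, Dazl showed the widest separation. Dazl encodes an RNA-binding protein that promotes translation of germ cell transcripts, and lies at chr17:50279395-50293636 on the minus strand (GRCm38), overlapping no other annotated gene. It had 1, 3 and 3 reads in the Ctrl libraries (0.0528, 0.161 and 0.162 CPM). KO libraries had 48, 78 and 38 reads (2.54, 6.70 and 2.55 CPM), and ALKKO libraries had 144, 193 and 155 reads (8.71, 11.5 and 9.89 CPM). The tumors, with Dnmt1 intact, had 7, 1 and 0 reads. No KO or ALKKO library overlapped with Ctrl or ALK, and Dazl alone among the 42 exceeded 3 counts in every deleted library while staying at or under 3 in every Ctrl library, which held for 0.117% of all genes with a read. With Ctrl set at the floor of 3 counts per library, Dazl was at least 24.6-fold higher in KO (15.9-fold without KO replicate 2) and at least 62.7-fold higher in ALKKO. It rose in ALKKO (edgeR adjusted p = 0.0317, fitted log2 fold change 6.24 ± 0.93 SE), and did not pass in KO (adjusted p = 0.254, 4.89 ± 0.90) or in both together (adjusted p = 0.0673, 5.57 ± 0.88). The call in ALKKO was lost without any one Ctrl library (edgeR adjusted p = 0.228 to 0.253) and without any one ALKKO library (0.119 to 0.133). It was also lost without KO replicate 1 (0.0654) or 3 (0.0682), with age as a covariate (0.0548) and with replicate number as a block (0.134). It held with only Ctrl and ALKKO in the fit (edgeR adjusted p = 0.000984), with DESeq2 (adjusted p = 5.22e-12) and without any one tumor (edgeR adjusted p = 0.0110 to 0.0388). The fitted log2 value stayed between 5.88 and 6.44 throughout. Every ALKKO library lay above every KO library, but the difference did not pass the test (log2 1.35 ± 0.72, adjusted p = 0.9998).

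Taf7l, the X-linked germ cell paralog of the TFIID subunit gene Taf7, was seen mainly in ALKKO. It had 1, 3 and 0 reads in Ctrl, 2, 2 and 2 in KO, 10, 30 and 8 in ALKKO, and 0 in each tumor. ALKKO did not overlap with any other group, whereas the reads in KO lay within the range of Ctrl. Taf7l was at least 6.05-fold higher in ALKKO than in Ctrl and at least 4.70-fold higher than in KO, each against the floor of 3 counts per library. These bounds rested in part on ALKKO replicate 2, without which they were 3.48-fold and 2.705-fold. It did not pass the low-count filter, and the exact permutation test over the thymus libraries, 6 with the deletion against 3 without, gave p = 0.0714 (two-sided, 1 of 17 unadjusted tests of this kind, smallest possible p 0.0238).

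Of the other germ cell regulators, Brdt, Stra8 and Dnmt3l passed the low-count filter, and none of them was called between deleted thymus and Ctrl. Brdt, which binds acetylated histones in spermatocytes and spermatids, had 31.1 ± 4.25 CPM in Ctrl, 21.8 ± 10.03 in KO and 31.4 ± 6.02 in ALKKO (mean ± SD, n = 3), with its lowest thymus value, 10.2 CPM, in KO replicate 2. Stra8, the retinoic acid target that opens meiosis, stayed between 0.430 and 1.08 CPM in all thymus libraries. Dnmt3l, the cofactor of de novo methylation in germ cells, had 0.0859 to 1.22 CPM in thymus. Sohlh2, a germ cell transcription factor, and Meioc, which sustains meiotic prophase, had at most 2 reads in any library.

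Among the 6 genes of the synaptonemal complex and axis, Syce1, a protein of the central element, had the largest fitted difference in deleted thymus of the 4 that passed the filter. It had 2, 4 and 2 reads in Ctrl (0.106, 0.214 and 0.108 CPM), 0.582, 1.55 and 1.88 CPM in KO, 2.66, 1.97 and 2.68 CPM in ALKKO, and 0, 0 and 0.0780 CPM in the tumors. All KO and ALKKO libraries lay above all Ctrl libraries, and all ALKKO libraries above all KO libraries. The fitted log2 fold change was 3.15 ± 0.67 SE in KO (edgeR adjusted p = 0.456) and 4.02 ± 0.68 in ALKKO (adjusted p = 0.0549), neither of which passed. In ALKKO it passed in 3 of 19 other settings. These were DESeq2 (adjusted p = 4.78e-05), only Ctrl and ALKKO in the fit (edgeR adjusted p = 0.0102) and the fit without ALK replicate 1 (0.0492). Both together gave 3.59 ± 0.63 (edgeR adjusted p = 0.106). Syce1 overlaps the gene Gm29799 on the other strand, and the strand setting of the counting is not given in the sources used here.

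Hormad1, a HORMA-domain protein of the unsynapsed axis, had 0, 0 and 1 reads in Ctrl, 3, 4 and 2 in KO and 3, 4 and 3 in ALKKO. The deleted libraries did not overlap with Ctrl (exact permutation test p = 0.0238, the smallest possible, unadjusted), but every value was at or near the floor. Its relative Hormad2 overlapped between the groups, at 1.12 to 3.22 CPM in Ctrl, 0.945 to 4.82 in KO and 0.665 to 3.38 in ALKKO. Sycp3, of the lateral element, split the deleted libraries, with 3.52, 2.82 and 2.03 CPM in KO replicates 2 and 3 and ALKKO replicate 2 but 0.121 to 0.319 CPM in the other deleted libraries, against 0.845 to 1.99 CPM in Ctrl. Sycp1, the transverse filament that joins the lateral elements, had at most 2 reads in any library.

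Tex11, an X-linked gene needed for crossover formation, went the other way in KO. It had 1.69, 1.23 and 1.99 CPM in Ctrl, 0.318, 0.430 and 0.134 CPM in KO, 1.27, 0.956 and 1.72 CPM in ALKKO, and 0 reads in each tumor. All KO libraries lay below all Ctrl and ALKKO libraries, and ALKKO overlapped with Ctrl. The log2 fold change was -2.46 ± 0.53 in KO against Ctrl (edgeR adjusted p = 0.709) and 2.15 ± 0.53 in ALKKO against KO (adjusted p = 0.9998), so neither difference passed. The latter was the single unadjusted p under 0.05 among the 24 genes in ALKKO against KO (2.69% of all genes), where edgeR called 0 of 24 (0.00623% of all genes).

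Of the 17 piRNA pathway and germ granule genes, 7 passed the low-count filter, and edgeR called none of these in deleted thymus. Over all genes tested, 0.0187% were called in KO, 0.181% in ALKKO and 0.0561% in both together. The other 10, Gtsf1, Stk31 and Mov10l1 among them, were not tested by edgeR. Gtsf1, a cofactor of PIWI proteins, had 0, 2 and 0 reads in Ctrl, 4, 6 and 1 in KO, 16, 13 and 6 in ALKKO and 0, 0 and 1 in the tumors. ALKKO did not overlap with Ctrl and was at least 4.43-fold higher against the floor, and the deleted libraries together gave p = 0.0476 in the exact permutation test (unadjusted). Fkbp6, a co-chaperone in the piRNA pathway, had 0.0528, 0.428 and 0.0539 CPM in Ctrl, 0.477, 0.516 and 0.269 in KO, and 0.846, 0.777 and 0.829 in ALKKO. Its 3 ALKKO libraries lay close together and above all others, yet the log2 fold change of 2.15 ± 0.78 did not pass (edgeR adjusted p = 0.9998), nor did 1.67 ± 0.71 for both deleted groups (adjusted p = 0.987). Without Ctrl replicate 2, the Ctrl library with most reads, these were 3.74 and 3.27, and they did not pass either (edgeR adjusted p = 0.524 and 0.9999).

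The 3 PIWI genes differed from each other. Piwil2 (Mili) had 0.581, 0.589 and 0.485 CPM in Ctrl, 1.06, 1.37 and 1.01 in KO, and 1.33, 0.836 and 1.47 in ALKKO, with no overlap between deleted and Ctrl libraries. It did not pass in KO (log2 fold change 1.04 ± 0.72, edgeR adjusted p = 0.883), in ALKKO (1.12 ± 0.72, 0.9998) or in both together (1.08 ± 0.64, 0.987). Piwil4 (Miwi2) had overlapping values in thymus, from 0.536 to 1.33 CPM, and Piwil1 (Miwi) had at most 2 reads in any library. Stk31, a Tudor-domain kinase gene, had 1, 0 and 1 reads in Ctrl, 2, 10 and 0 in KO and 4, 2 and 2 in ALKKO (exact permutation p = 0.119). Tdrd9 and Mov10l1, both encoding helicases of the pathway, owed their means in KO to 1 library each, Tdrd9 which overlaps Rd3l on the other strand, with 9.64 CPM in KO replicate 1 (0.687 and 1.21 CPM in the others) and Mov10l1 with 17 reads in KO replicate 3 (1 read in each of the others).

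The Tudor protein gene Tdrd5 was the one member of this role at a high level. It overlaps A430050A11Rik on the same strand and 4930518J20Rik on the other, which leaves its reads uncertain, and it had 80.8, 77.2 and 107 CPM in Ctrl, 99.7, 19.25 and 110 in KO, and 117, 42.5 and 107 in ALKKO. The low KO value is that of replicate 2, and the part of its different cell makeup in this value was not tested. Of the rest, Ddx4 (Vasa), Ddx25, Tdrd1, Tdrd6, Tdrd12 and Rnf17 stayed at or below 1.40 CPM in every library, and Asz1 and Mael at or below 3 reads.

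None of the recombination and cohesin genes was called between deleted thymus and Ctrl. Spo11 had 212, 219 and 141 CPM in Ctrl, 189, 48.9 and 191 in KO, and 227, 102 and 156 in ALKKO. Like Tdrd5 and Brdt, it was lowest among thymus libraries in KO replicate 2. Zcwpw1 had 26.6 ± 1.03 CPM in Ctrl, 24.6 ± 3.34 in KO and 24.6 ± 5.96 in ALKKO (n = 3), and the log2 fold change of both deleted groups together was -0.11 ± 0.51 SE. Dmc1, the meiotic recombinase, ranged from 1.85 to 4.50 CPM in Ctrl, within its range of 0.859 to 6.63 CPM in deleted thymus. Tex15, needed for meiotic repair and for transposon silencing, had 2.32, 1.18 and 1.62 CPM in Ctrl, 2.86, 3.27 and 1.95 in KO, and 4.11, 6.21 and 2.55 in ALKKO. In ALKKO it did not overlap with Ctrl, but the log2 fold change of 1.33 ± 0.58 did not pass (edgeR adjusted p = 0.9998). The cohesins Stag3, Rec8 and Smc1b overlapped between deleted thymus and Ctrl. Every KO library lay above every Ctrl library for Smc1b (0.371 to 1.12 against 0.214 to 0.370 CPM) and for the germ granule gene Rnf17 (0.471 to 1.03 against 0.158 to 0.377 CPM), and in both genes ALKKO overlapped with Ctrl. For Smc1b, KO replicate 1 and Ctrl replicate 1 each had 7 reads. For Rnf17, KO replicate 3 and Ctrl replicates 2 and 3 each had 7 reads. Both separations thus rested on the scaling by library size.

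Among the 5 genes of the testis surface, bridge and backup copies, Rpl10l, a retrogene copy of the ribosomal protein gene Rpl10, was listed at 0 reads in all 12 libraries, as was Rag1, so this 0 does not by itself show silence. D1Pas1, a copy of the helicase gene Ddx3x, and Tex101, a germ cell surface protein, had at most 3 reads. Slc25a31, the testis ADP/ATP carrier, overlapped between Ctrl (0.428 to 0.950 CPM) and deleted thymus (0.529 to 1.98 CPM). Tex14, of the intercellular bridge, had 1.53, 1.12 and 1.40 CPM in Ctrl and 3.57, 2.63 and 1.66 CPM in ALKKO, with no overlap and a log2 fold change of 0.95 ± 0.97 SE that did not pass (edgeR adjusted p = 0.9998). At this depth the 9 silent genes (Asz1, D1Pas1, Mael, Meioc, Piwil1, Rpl10l, Sohlh2, Sycp1 and Tex101) were not detectable above 0.158 to 0.261 CPM, depending on the library, and this floor covers counting error only. Of the 41 genes with a read, 8 had at most 3 in all libraries, beside 26.0% of all genes with a read.

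**Figure D2:**
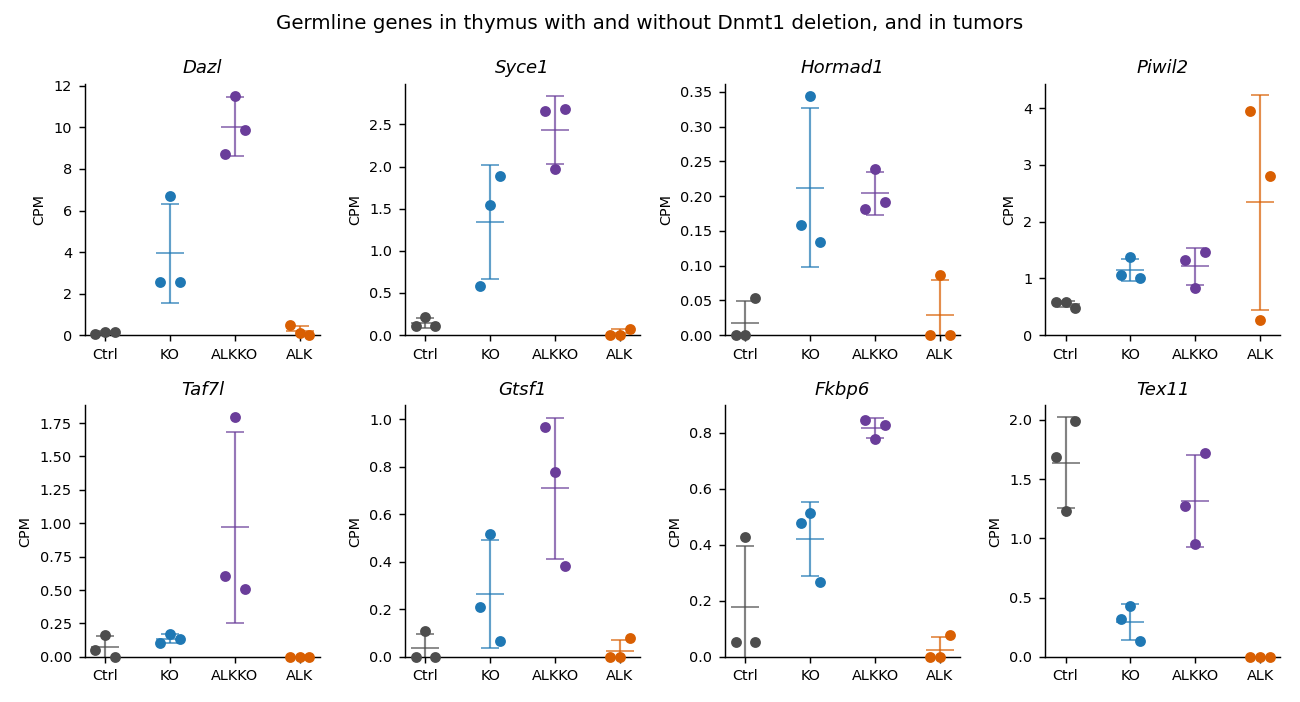
CPM (y axis, from 0, a scale for each gene) of 8 germline genes in the Ctrl, KO, ALKKO and ALK libraries (points, replicates 1 to 3 from left to right), with the mean and SD of each group as a line with bars. Dazl and Syce1 are at or below 0.214 CPM in Ctrl and at or above 0.582 CPM in every deleted library, Taf7l lies at 0.510 to 1.79 CPM in ALKKO and at or below 0.172 CPM elsewhere, and Tex11 lies at or below 0.430 CPM in KO and at 0 in ALK.

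The comparison of ALK with Ctrl asks how the same genes stand in lymphoma with intact Dnmt1. edgeR called 9 of the 24 genes tested (37.5%), 3 higher and 6 lower, where 20.4% of all genes were called, 8.41% higher and 12% lower. At an unadjusted p under 0.05 there were 13 of 24, beside 42.5% of all genes, and the median log2 fold change was -0.92, beside 0.05 over all genes. None of the 3 that rose was called in deleted thymus, and Dazl, Syce1, Taf7l, Gtsf1 and Fkbp6 were each at 0.470 CPM or less in every tumor.

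Tex15, Piwil4 and Stra8 rose in the tumors. In the same tumors 5 markers of stroma and endothelium summed to 827 to 1423 CPM, against 219 to 295 CPM in Ctrl. Of these markers edgeR called Col1a1 and Col1a2 higher (log2 fold change 4.26 and 3.35). Pecam1, Pdgfra and Cdh5 were not called (log2 fold change -0.05, 0.31 and 0.71, edgeR adjusted p = 0.910, 0.755 and 0.419). The raised sum thus rested mainly on Col1a1 and Col1a2. The part of stroma in Tex15, Piwil4 and Stra8 was not tested. Tex15 had 30.9, 9.58 and 7.65 CPM, all above the highest thymus value of 6.21 CPM (log2 fold change against Ctrl 3.23 ± 0.61, edgeR adjusted p = 0.00399, and 2.34 without ALK replicate 1). Piwil4 had 3.76, 5.31 and 3.04 CPM, all above the highest thymus value of 1.33 CPM (2.42 ± 0.49, edgeR adjusted p = 0.00525). Stra8 had 15.1, 4.27 and 0.937 CPM against 0.528, 0.857 and 1.08 CPM in Ctrl (3.04 ± 0.84, edgeR adjusted p = 0.0217), and ALK replicate 3 lay within the range of Ctrl. The call of Stra8 was lost without ALK replicate 1 (log2 1.66, edgeR adjusted p = 0.0767) and without any one Ctrl library (0.0569 to 0.0878). Piwil2 had 3.96, 0.261 and 2.81 CPM and did not pass (edgeR adjusted p = 0.0520), but passed without ALK replicate 2 (0.00428).

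Tdrd5, Stag3, Hormad2, Slc25a31, Dnmt3l and Tex11 fell in the tumors. Tdrd5 had 14.8, 3.92 and 20.7 CPM, all below Ctrl (log2 fold change -2.74 ± 0.71, edgeR adjusted p = 0.0168). The cohesin gene Stag3 had 2.35, 0.958 and 0.624 CPM against 9.71, 10.4 and 8.62 CPM in Ctrl (-2.85 ± 0.59, edgeR adjusted p = 0.00601, and -3.58 without ALK replicate 1). Hormad2 had 0.268, 0.261 and 0.234 CPM (-2.88 ± 0.87, edgeR adjusted p = 0.0312), a call lost without Ctrl replicate 1 or 3 or any one tumor (0.0541 to 0.106). None of these tumor values overlapped with Ctrl.

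For the remaining 3 that fell, no tumor exceeded 3 reads, so their folds are bounds against the floor. Tex11 was at least 7.05-fold lower (edgeR adjusted p = 0.000872), Dnmt3l, with 0, 0 and 1 reads, at least 3.46-fold lower (adjusted p = 0.0160), and Slc25a31, with 1, 0 and 3 reads, at least 3.29-fold lower (adjusted p = 0.0274). The call of Dnmt3l was lost without ALK replicate 2 (edgeR adjusted p = 0.0513), and that of Slc25a31 without Ctrl replicate 1 or 3 or ALK replicate 1 or 2 (0.0638 to 0.0809). Dnmt3l overlaps Aire, a gene of medullary thymic epithelium, on the other strand, and Aire fell in the tumors too, from 26.4, 13.5 and 22.7 CPM in Ctrl to 3.96, 0.0871 and 0.937 CPM. The 12 thymic epithelial markers had sums between 2039 and 2303 CPM for Ctrl but between 38.4 and 335 CPM for ALK. Of these markers, 7 of 12 were called lower. Epcam, Krt5, Krt14, Cldn3 and Cldn4 were not called (edgeR adjusted p = 0.502, 0.149, 0.925, 0.375 and 0.523). In ALK replicate 3, Krt14 had 84.1 CPM and Cldn4 46.6 CPM, above their highest Ctrl values of 39.4 and 34.4 CPM. The thymocyte markers moved as given above. The 5 B cell markers summed to 2.26 to 8.74 CPM in ALK, against 45.3 to 81.5 CPM in Ctrl. The part of epithelial, thymocyte and B cell content in the members that fell was not tested. In deleted thymus the epithelial sum was 2126, 220 and 1836 CPM in KO and 1584, 1345 and 1513 CPM in ALKKO. Every ALKKO sum thus lay below every Ctrl sum. Still, edgeR called 0 of the 12 markers in the deletion comparisons, with 0 at an unadjusted p under 0.05. The part of epithelial content in the values of deleted thymus was not tested.

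Several germline genes were high in a single tumor. Rec8, the meiotic kleisin of cohesin, had 37.5 CPM in ALK replicate 3 against 0.268 and 0.174 CPM in the other tumors and 0.202 to 2.11 CPM in thymus, and Dmc1 had 35.0 CPM in ALK replicate 2 against 0.268 and 0.468 CPM in the other tumors. Rec8 did not pass (log2 4.33 ± 1.68, edgeR adjusted p = 0.0756), and without ALK replicate 3 its log2 fold change was -1.46, whereas it passed without ALK replicate 1 (4.90, edgeR adjusted p = 0.0312) or 2 (4.88, 0.0408). Tex14 reached 14.0 CPM in ALK replicate 3, and Zcwpw1 57.7 CPM in ALK replicate 1 against 11.8 and 7.49 CPM in the other tumors. By a rule set after the values were seen (at least 10 counts in the highest library and at least 4 times the CPM of the second highest), 4 of 41 genes with a read stood high in 1 library (Rec8, Dmc1, Tdrd9 and Mov10l1), beside 3.70% of all genes with a read.

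**Figure D3:**
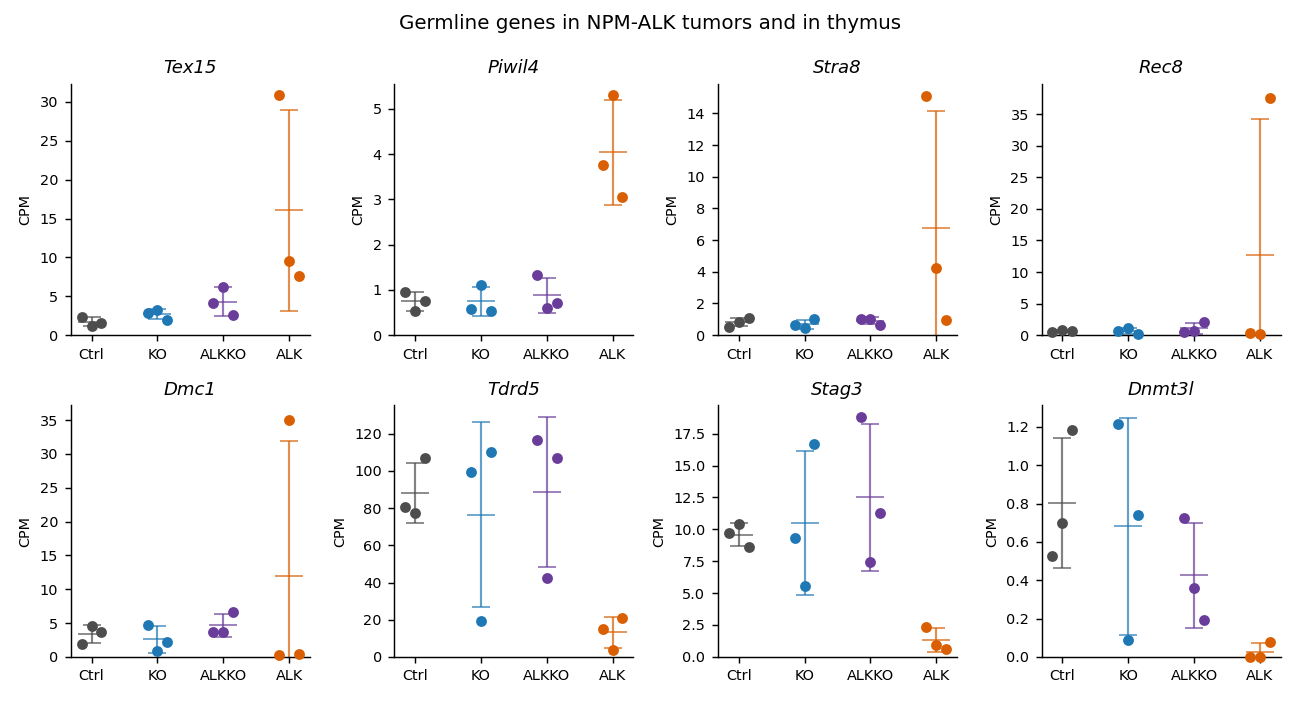
CPM (y axis, from 0, a scale for each gene) of 8 germline genes in the Ctrl, KO, ALKKO and ALK libraries (points, replicates 1 to 3 from left to right), with the mean and SD of each group as a line with bars. Tex15 and Piwil4 are higher in all 3 tumors than in any thymus library, Rec8 and Dmc1 are high in 1 tumor each (37.5 and 35.0 CPM), and Tdrd5, Stag3 and Dnmt3l are low in all tumors.

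A further 41 genes of the germ line and meiosis, none of them among the 42, were read from the same fits. Of these, 23 passed the filter and 9 were silent. edgeR called 1 higher in KO (Tuba3b), 2 in ALKKO (Tuba3b and Tuba3a) and 1 in both together (Tuba3b), with none lower. Without KO replicate 2 these counts were 0, 3 and 1. Tuba3b, a testis alpha-tubulin, had 0.317, 0.0536 and 0.108 CPM in Ctrl, 5.45, 6.10 and 6.39 in KO, 23.0, 27.4 and 17.3 in ALKKO, and 0.134, 0.523 and 0.156 in ALK, with KO above Ctrl and ALKKO above KO as for Dazl and Syce1. Its log2 fold change was 5.16 ± 0.64 in KO (edgeR adjusted p = 0.0398) and 7.07 ± 0.68 in ALKKO (adjusted p = 0.00274). Tuba3a and Tuba3b are close copies, so reads can be lost or split between them. Tex19.1 and Tex19.2, which act in the germ line against transposons, had 0 or 1 read per Ctrl library, 2 to 8 in KO and 11 to 26 in ALKKO, at least 5.76-fold and 7.61-fold higher in ALKKO against the floor, and neither passed (edgeR adjusted p = 0.104 and 0.0549). In the tumors 5 of the 23 tested were called (21.7%, beside 20.4% of all genes), Syce2, Msh5 and Prdm9 higher and Six6os1 and Henmt1 lower. Of 16 genes of late spermatids, 9 were silent and 2 passed the filter, and none was called in deleted thymus (edgeR, 0 at an unadjusted p under 0.05).

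The 15 genes for repressors of germline genes, Dnmt1 among them, were all tested. edgeR called 0 in deleted thymus against Ctrl, with 2 at an unadjusted p under 0.05 in KO, 2 in ALKKO and 4 in both together. In the tumors Dnmt3b, a de novo methyltransferase, was called higher, at 29.2 ± 6.94 CPM against 9.01 ± 1.13 CPM in Ctrl (n = 3, edgeR adjusted p = 0.00155).

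Promoter sequence was not used to choose the genes. A RefSeq window from 250 bases before to 50 bases after the start was at hand for 36 of them and for 27025 genes in all. The ratio of observed to expected CpG, which is near 1 where CpG has not been lost, had a median of 0.714 in the 36 and 0.389 in all windows. It was at least 0.6 in 72.2% of the 36 and in 36.5% of all. The letters CACGTG (an E-box, the kind bound by MGA and MAX, the same on both strands) stood in 16 of 36 windows (44.4%) and in 7.24% of all, and the letters TCCCGC (an E2F-type motif, searched on both strands) in 16 of 36 (44.4%) and in 20.1% of all. Among windows with a ratio of at least 0.6, CACGTG stood in 14 of 26 of these genes (53.8%) and in 11.4% of all, and TCCCGC in 15 of 26 (57.7%) and in 43.0%. A match of letters is a description and not a binding site.

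Grouped by their level in thymus, the genes had like CpG ratios. The median CpG ratio was 0.707 in the 9 silent genes, 0.716 in the 19 low genes with a window and 0.712 in the 8 with at least 1 CPM in Ctrl. CACGTG stood in 33.3%, 52.6% and 37.5% of these classes and TCCCGC in 55.6%, 31.6% and 62.5%, with no test of the differences. For the genes whose sequence is shown, ratios and motifs refer to the full window, of which the stretch shown is a part. Dazl had a ratio of 0.795 and neither motif, and Syce1 (0.625) and Gtsf1 (0.531) had neither as well. Taf7l had a ratio of 1.03 and CACGTG at position -49 from the RefSeq start, where the sequence above reads the same letters with the central CG in capitals. Silent Sycp1 (0.874) held CACGTG at position -94 from the start and TCCCGC at position 2, and silent Asz1 (0.783) held neither.

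**Figure D4:**
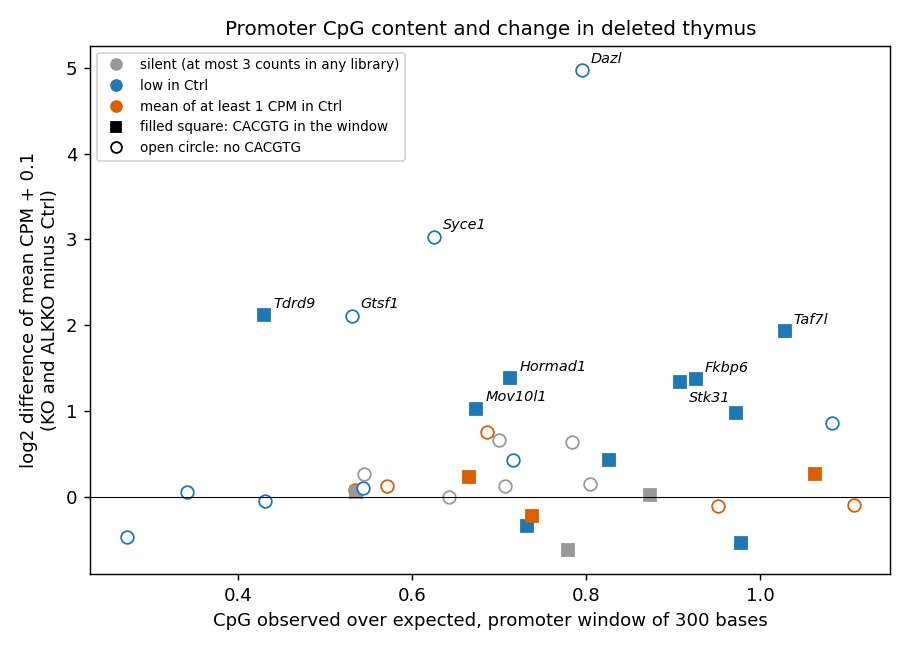
Ratio of observed to expected CpG in the promoter window of 300 bases (x axis) against the log2 difference of mean CPM + 0.1 between KO and ALKKO together and Ctrl (y axis) for 36 germline genes, coloured by class, with filled squares where the window holds CACGTG. Dazl (4.98) and Syce1 (3.03) lie highest at ratios of 0.795 and 0.625, and the differences of the genes with ratios near 1 run from -0.54 (Ddx4) to 1.93 (Taf7l).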

How the data were processed

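RNA of thymus or tumor tissue was sequenced as stranded poly(A) libraries, single-end. The authors trimmed the reads with Trim Galore, aligned them to mm10 with STAR and deposited raw counts of reads per gene made with HTSeq, without normalization. Tool versions, the annotation release and the strand setting are not given in the sources used here. Rows that name no gene (43.8% to 55.3% of all reads listed) were left out. Of 50600 gene IDs, 50376 matched a GENCODE M21 symbol.

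Counts were tested with edgeR 4.0.16 (R 4.3.3): TMM (factors 0.913 to 1.06), filterByExpr, 1 term per group over all 12 libraries, robust glmQLFit and glmQLFTest. P-values were adjusted by Benjamini-Hochberg across all 16052 tested genes. Standard errors came from the F statistic, and the procedure was tested on simulated data. DESeq2 1.42.0 was an alternative. CPM were scaled by TMM. Genes below the filter were compared by an exact two-sided permutation test (SciPy 1.17.1). Replicates were compared by chi-square per degree of freedom (13.5 to 207 within groups), so no library was counted as a duplicate. Deviations of same-numbered libraries from their group means correlated at r -0.106 to 0.426 (18 pairs, 5 over 0.1), highest between KO and ALKKO replicate 1. Differently numbered pairs were not computed, so these values do not decide whether the numbers pair libraries. The main fit did not take replicate numbers as pairs. In edgeR, p-values set a difference against the spread between mice within groups. That spread was estimated over all 12 libraries, so tumors and KO replicate 2 entered it for the thymus comparisons too. The values of overlapping genes are uncertain.

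Values in every library were given for genes called in any comparison, with an unadjusted p under 0.05 in KO and ALKKO together, or over 3 counts in all deleted and at most 3 in all Ctrl libraries. Genes of at least 1 CPM in Ctrl were given by group, others by class. Hormad1, Piwil2, Taf7l, Gtsf1, Stk31, Rec8, Dmc1, Tdrd9, Mov10l1, Spo11, Tex14, Sycp3 and Zcwpw1 fall outside this rule for full values and were chosen after their values were seen. Members, lists and tests were chosen with earlier results of these data known.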

Additional observations from a re-analysis of the deposited data

How the results depend on the processing

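Over 26 pairs of gene and comparison and 20 alternative settings, 446 of 492 values kept their direction and their side of the threshold, 27 lost a call, 17 gained it and 2 reversed. Both reversals were Rec8 in ALK, at log2 -0.033 with age as a covariate and -1.46 without ALK replicate 3 (range -1.46 to 4.90 without 1 replicate). Of the calls, those of Tex11, Tex15, Piwil4, Stag3 and Tdrd5 in ALK held in all settings run, while Hormad2 and Stra8 lost theirs in 6 settings each, Slc25a31 in 4 and Dnmt3l in 1. Dazl in ALKKO, the only call in a deletion comparison, was lost most often, in 10 of 19 settings.

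Calls among the germline genes in KO numbered 3 with DESeq2 (0 with edgeR). In ALKKO (1 with edgeR) they numbered 2 (Dazl and Syce1) with DESeq2 or with only the groups compared in the fit. They numbered 0 with at least 10 counts in every library, which removes Dazl from the test, or with age as a covariate. In KO and ALKKO together (0) they numbered 2 with DESeq2 and 1 with only the groups compared. In ALK (9) they numbered 2 with at least 10 counts in every library, which leaves fewer genes tested. The genes silent at the floor of 3 counts (9) numbered 1 at a floor of 0 counts. Leaving out 1 replicate at a time, calls ranged from 0 to 2 in ALKKO, from 0 to 1 in KO and ALKKO together and from 6 to 10 in ALK, stayed at 0 in KO and in ALKKO against KO, and genes higher in every deleted library ranged from 4 to 9. Dazl passed in both together without ALK replicate 1 (edgeR adjusted p = 0.0162) or 3 (0.0217). Where no value shows the cause, the cause was not tested.

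With the replicate number as a block, calls in ALKKO numbered 0 (Dazl log2 6.25, edgeR adjusted p = 0.134). Without the block the fitted log2 value was 6.24, so the call was lost at a like effect size. Whether the numbers pair the libraries was not settled. Genes at 1 to 10 reads are limited by depth, and a difference within the floor of 3 counts was not detectable. The count of genes with every ALKKO above every Ctrl library with DESeq2 size factors, and those of the further germline genes without KO replicate 2 and the bounds with a library left out, were added after seeing the data (the first stayed at 11).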
